A study of Danio rerio with 20 samples.

Results

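The effect of swim-tunnel exercise on the brain was examined in male zebrafish (Danio rerio) of 1 year. A swim tunnel is a chamber in which a fish has to swim against a current of water. The comparison set 5 RNA sequencing libraries of exercised fish against 5 of fish with no perturbation, chosen by their age and perturbation labels, and so used 10 of the 20 libraries of the series. The other 10 libraries came from exercised and unexercised fish of 3 years, 5 each, and their exercise difference is set beside that at 1 year. All groups share the tissue (brain), the sex and the strain label AB JxTu. How long and how fast the fish swam, when they were sampled afterwards, at what hour, and how many animals went into a library is stated in no source used here. The p-values therefore measure the spread between libraries, which may in part be technical. That spread was estimated from all 20 libraries, so the 3-year libraries also bear on the p-values at 1 year. Replicates were numbered in accession order, so a number names a library and pairs none across groups.

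Forced swimming raises the demand for energy and, in fish as in other vertebrates, can release cortisol, which acts in cells through the glucocorticoid receptor NR3C1 and induces genes such as FKBP5 and KLF9. FoxO transcription factors, which insulin signalling keeps out of the nucleus, act on genes of fasting and of mitochondrial fuel use. Many of these genes are also tied to the circadian clock, in which CLOCK and BMAL1 switch on the PER and CRY genes, whose proteins then restrain CLOCK and BMAL1, while the nuclear receptors NR1D (REV-ERB) and ROR repress and activate BMAL1. Immediate early genes such as egr1 and NPAS4 are transcribed within minutes of neuronal firing and serve as markers of recent activity.

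The 10 libraries held between 23.4 and 31.9 M counts, and 21148 genes entered the test. Levels are given as CPM, a gene's count relative to the scaled total of its library, in the order of replicates 1 to 5. The brain label was checked with 20 neuronal marker genes, all of which were detected; their list score, the mean of log2(CPM + 1) over the list, was 7.88 to 8.23 in exercised and 7.86 to 8.11 in unexercised libraries. Libraries of exercised fish resembled each other more closely (mean Pearson correlation of a library with its group, across genes, 0.969 to 0.976) than libraries of unexercised fish (0.932 to 0.958). The library labelled unexercised replicate 1 stood apart: it lay at -119 on the first principal component of the 1-year libraries, which carried 27.6% of their variance, whereas the other 9 lay between -5.80 and 26.1. Its mean correlation with its group was 0.932, and it also enters the means of the other unexercised libraries (0.948 to 0.958).

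Markers of tissues that lie next to the brain differed between single libraries. The summed level of 36 skeletal muscle genes, all detected, was 86.7 to 585 CPM in exercised libraries and 73.0 to 587 CPM in unexercised replicates 2 to 5, but 16950.2 CPM in unexercised replicate 1. The 30 epidermis genes, all detected, summed to 864 to 1237 CPM in exercised libraries, to 844 to 1171 CPM in unexercised replicates 2 to 5 and to 5543 CPM in unexercised replicate 1. The retina and pineal list, of which 41 of 42 genes were detected and opn1mw2 was at 0, summed to 669 CPM in exercised replicate 3, against 56.5 to 73.7 CPM in the other exercised and 49.6 to 75.5 CPM in the unexercised libraries. In bulk tissue, a lower level from fewer cells of a type and one from less RNA per cell cannot be told apart.

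**Figure D1:**
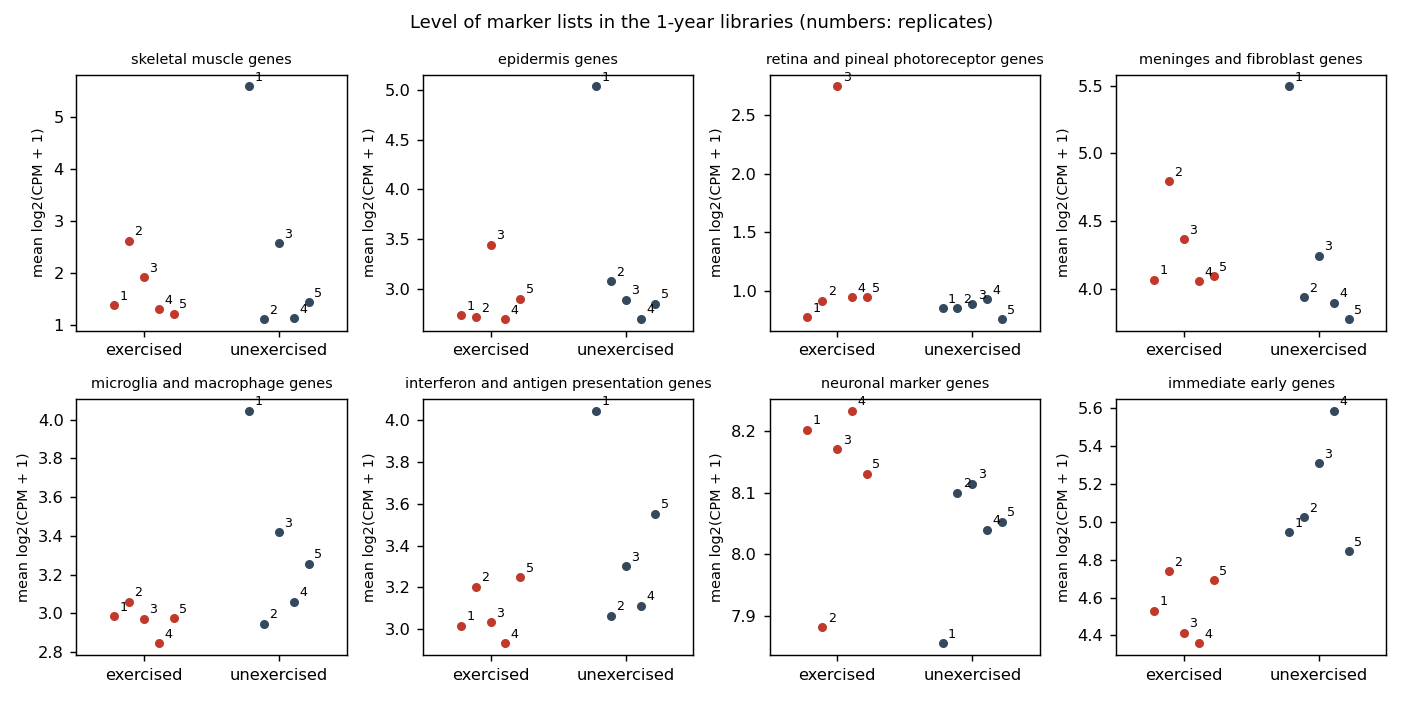
Mean log2(CPM + 1) over the genes of 8 lists in each 1-year library, exercised (red) left of unexercised (blue), with replicate numbers. The muscle score of unexercised replicate 1 was 5.60, against at most 2.62 in the other libraries, and the retina score of exercised replicate 3 was 2.75, against at most 0.94; the immediate early score was below every unexercised value in all 5 exercised libraries.

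Of the 21148 genes, 4 differed between exercised and unexercised fish at 1 year (0.0189%; edgeR's quasi-likelihood test, Benjamini-Hochberg adjusted p below 0.05): FOXO1 rose (0.00473% of genes called higher), and ZNF395, HSF2 and DDB2 fell (0.0142% called lower). FOXO1 (ENSDARG00000099555), a forkhead factor of the fasting and insulin response, had 40.2, 45.7, 66.6, 41.6 and 56.0 CPM in exercised libraries, against 28.6, 30.7, 23.9, 29.8 and 30.1 CPM in unexercised ones. Every exercised library lay above every unexercised library, and exercised replicates 3 and 5 were the highest. The log2 fold change was 0.81 ± 0.13 (SE, adjusted p = 0.0421). Another gene with this symbol, FOXO1 (ENSDARG00000061549), was expressed at 0.482 to 2.03 CPM in exercised and 0.256 to 1.23 CPM in unexercised libraries, with overlapping groups.

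ZNF395 (ENSDARG00000024195), which encodes a zinc finger protein, had 25.8, 25.5, 22.7, 24.0 and 19.8 CPM in exercised libraries, against 39.4, 45.8, 44.2, 54.0 and 38.8 CPM in unexercised ones. The groups were separated by a gap between 25.8 and 38.8 CPM, and the log2 fold change was -0.92 ± 0.12 (adjusted p = 0.00933). HSF2 (ENSDARG00000053097), a heat shock transcription factor, had 27.7, 27.1, 24.8, 25.5 and 28.0 CPM after exercise and 41.1, 44.8, 53.5, 52.8 and 37.4 CPM without it. The exercised libraries were tightly grouped and lay below all of the unexercised ones, of which replicate 5 was the lowest; the log2 fold change was -0.79 ± 0.13 (adjusted p = 0.0421). DDB2 (ENSDARG00000041140), which recognises damaged DNA in nucleotide excision repair, had 13.6, 14.8, 12.3, 13.2 and 13.5 CPM in exercised libraries and 23.9, 20.9, 19.7, 23.0 and 19.4 CPM in unexercised ones. Its groups did not overlap either, and its log2 fold change was -0.67 ± 0.11 (adjusted p = 0.0421). ZNF395 was called in 8 of the 10 fits that each left out a 1-year library, FOXO1 in 2, and HSF2 and DDB2 in 1 each; the number called in all was 0 without exercised replicate 3 and 0 without exercised replicate 5, with 7.63% and 10.7% of genes at an unadjusted p below 0.05. It was 1 without exercised replicate 2 or 4, 2 without unexercised replicate 1, 2 or 3, and 197 without unexercised replicate 5. With only the 1-year libraries in the fit, 8 genes were called, with ZNF395, HSF2 and DDB2 among them but not FOXO1.

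**Figure D2:**
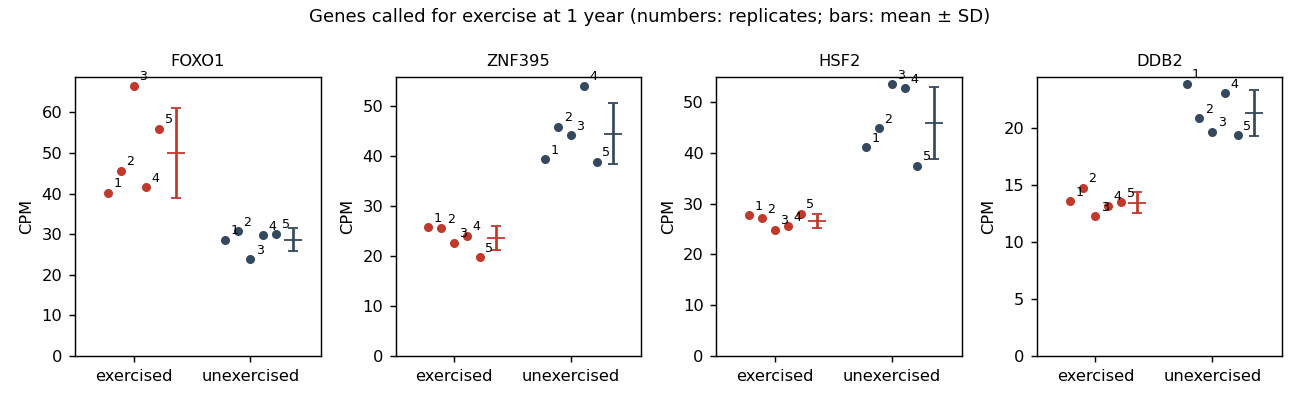
Level in CPM of the 4 genes called at 1 year, with a point per library, exercised (red) left of unexercised (blue), numbered by replicate; bars give the mean ± SD of 5 libraries. FOXO1 averaged 50.02 ± 11.1 CPM in exercised and 28.6 ± 2.77 CPM in unexercised libraries, and ZNF395 23.6 ± 2.45 and 44.4 ± 6.15 CPM; no gene's groups overlap.

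The number of genes with a small p was much larger than the number called. An unadjusted p below 0.05 was found for 5.01% of genes in the positive and 6.44% in the negative direction, and the groups did not overlap for 0.908% of genes with all exercised libraries higher and 0.979% with all of them lower. The 12 genes with the smallest p in each direction are given here as values. Beside the called ones, their adjusted p lay between 0.0673 and 0.0971, and the groups did not overlap for 9 of the 12 with positive and 11 of the 12 with negative fold changes, a property that follows from their choice.

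Among those with positive values, gstt2, a glutathione S-transferase, had 8.08, 9.10, 9.29, 9.92 and 8.67 CPM in exercised libraries, against 6.26, 3.46, 4.88, 4.80 and 4.79 CPM in unexercised ones. Its groups did not overlap, and its log2 fold change was 0.90 ± 0.16. TIAM1 (ENSDARG00000078430), an activator of the small GTPase Rac, had 93.2, 97.3, 95.6, 86.6 and 90.9 CPM after exercise and 64.3, 70.0, 69.2, 69.9 and 79.8 CPM without it. All exercised libraries were higher, and the log2 fold change was 0.39 ± 0.07. ABCA1, which exports cholesterol from cells, had 98.0 to 129 CPM in exercised and 66.9 to 97.0 CPM in unexercised libraries, again without overlap, and a log2 fold change of 0.49 ± 0.10. rps6kb1a, a ribosomal S6 kinase of the insulin and mTOR pathway, had 20.6, 20.0, 25.3, 19.3 and 24.1 CPM in exercised libraries, against 10.3, 10.3, 9.29, 9.05 and 17.4 CPM in unexercised ones. Unexercised replicate 5 was the nearest to the exercised group, and the log2 fold change was 0.96 ± 0.19. tasor2, related to the TASOR subunit of a gene-silencing complex, had 76.0 to 103 CPM in exercised libraries, 36.7 to 43.0 CPM in unexercised replicates 1 to 4 and 78.0 CPM in unexercised replicate 5, with a log2 fold change of 0.89 ± 0.17. The remaining positive genes, INHBA, ACVR2A, CLOCK, YME1L1, zbtb16b and nr1d4a, are described with their pathways.

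Among those with negative values, 6 are given with the clock, among them cry-dash, a relative of the cryptochromes. GNL1, a GTP-binding protein, had 21.2 to 27.03 CPM in exercised and 28.8 to 34.9 CPM in unexercised libraries, and DEDD2, a death-effector domain protein, 228 to 251 and 270.5 to 362 CPM. Neither gene's groups overlapped, and the log2 fold changes were -0.39 ± 0.08 and -0.43 ± 0.08. shisa10.2 had 0.427, 1.16, 0.548, 0.482 and 0.764 CPM in exercised libraries, against 3.61, 7.93, 0.702, 10.3 and 8.94 CPM in unexercised ones. Here unexercised replicate 3 lay inside the exercised range while the other 4 were above it, and the log2 fold change was -3.22 ± 0.63.

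Clock genes had small p-values in both directions. Of 44 clock genes tested, 0 were called. An unadjusted p below 0.05 was found for 12 with a positive and 10 with a negative fold change. That is 22 of 44, where 11.5% of all genes had such a p. All exercised libraries were higher than all unexercised ones for 3 members and lower for 7, against 0.908% and 0.979% of all genes. Some genes described with the clock below are not members of the list. The median log2 fold change of the list was 0.14 (0.05 without unexercised replicate 1 to 0.24 without unexercised replicate 5), against -0.02 over all genes, with members on both sides of 0; here and below, the values in parentheses after a list's median are the lowest and highest when single 1-year libraries were left out. Without unexercised replicate 1 and exercised replicate 3 together, 695 of all 21148 genes had an unadjusted p below 0.05 with a positive and 593 with a negative fold change, against 1060 and 1362 with every library.

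Genes of the activating arm had positive values. CLOCK (ENSDARG00000003631) had 39.2, 44.8, 46.2, 38.7 and 40.8 CPM in exercised libraries, against 25.3, 27.3, 27.4, 22.7 and 36.8 CPM in unexercised ones. All exercised libraries were higher, with unexercised replicate 5 the nearest, and the log2 fold change was 0.59 ± 0.11 (adjusted p = 0.077). Another gene with this symbol, CLOCK (ENSDARG00000011703), had 6.44 to 12.8 and 2.43 to 14.3 CPM, with overlapping groups (0.78 ± 0.40, adjusted p = 0.474). Of the partners of CLOCK, BMAL1 (ENSDARG00000035732) had a log2 fold change of 0.51 ± 0.13, BMAL1 (ENSDARG00000006791) of 0.27 ± 0.09 and bmal2 of 0.45 ± 0.19, with adjusted p of 0.153, 0.306 and 0.389. npas2, a relative of CLOCK that can replace it, had 19.4 to 32.7 CPM in exercised and 8.09 to 21.7 CPM in unexercised libraries (log2 fold change 0.83 ± 0.32, adjusted p = 0.35), and its groups overlapped.

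Genes of the restraining arm had values of both signs. PER1 (ENSDARG00000012499) had 106, 97.3, 95.6, 76.7 and 78.0 CPM in exercised libraries, against 126, 155, 131, 170.0 and 124 CPM in unexercised ones. The groups did not overlap, and the log2 fold change was -0.64 ± 0.13 (adjusted p = 0.0775). The other PER1 gene, PER1 (ENSDARG00000056885), had a log2 fold change of -0.88 ± 0.23 with overlapping groups. PER2 had 167 to 197 CPM after exercise, 141 to 165 CPM in unexercised replicates 1 to 4 and 269.7 CPM in replicate 5. Its log2 fold change was 0.05 ± 0.14, and without unexercised replicate 5 it was 0.26 (adjusted p = 0.137). PER3 gave -0.32 ± 0.32. CRY2 had 42.0, 42.6, 39.7, 41.4 and 40.2 CPM after exercise and 47.6, 56.8, 50.5, 62.0 and 51.8 CPM without it. Its exercised values were within a few CPM of each other and all lower, and its log2 fold change was -0.38 ± 0.07 (adjusted p = 0.0721). The other CRY1 gene, CRY1 (ENSDARG00000045768), gave -0.21 ± 0.09. The cryptochromes cry3a, cry3b and cry4, whose part in the restraining arm was not tested, gave 0.18 ± 0.09, 0.35 ± 0.13 and 0.15 ± 0.14. Among relatives that do not belong to the restraining arm, cry5, a DNA photolyase, had 6.04 to 7.41 CPM in exercised and 9.19 to 11.5 CPM in unexercised libraries, and cry-dash 12.03 to 13.6 and 17.3 to 20.9 CPM. Neither pair of groups overlapped, and the log2 fold changes were -0.62 ± 0.14 and -0.59 ± 0.12. CRY1 (ENSDARG00000011583) had 51.6, 48.9, 61.9, 45.2 and 56.6 CPM in exercised libraries, against 27.8, 33.8, 28.9, 31.9 and 66.0 CPM in unexercised ones. Unexercised replicate 5 was above all exercised libraries and the other 4 were below them, with a log2 fold change of 0.49 ± 0.19. cipca, whose counterpart in mammals inhibits CLOCK and BMAL1, had 2.82, 4.33, 2.93, 2.27 and 2.96 CPM in exercised libraries, against 5.28, 6.05, 5.78, 7.47 and 4.89 CPM in unexercised ones. Exercised and unexercised libraries did not overlap, and the log2 fold change was -0.95 ± 0.19 (adjusted p = 0.0775). ciarta, whose counterpart in mammals also represses CLOCK and BMAL1, had 7.14 to 10.3 CPM after exercise and 14.7 to 25.1 CPM without it (-1.07 ± 0.28).

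The nuclear receptors of the clock had values of both signs. NR1D1, a repressor of BMAL1, had 22.2, 24.9, 18.2, 16.2 and 11.8 CPM in exercised libraries, against 30.8, 36.3, 60.1, 72.3 and 49.6 CPM in unexercised ones. Every exercised library was lower, and the log2 fold change was -1.42 ± 0.29 (adjusted p = 0.0862). NR1D2, its close relative, had 207 to 299 CPM after exercise and 342 to 442 CPM without it, also without overlap (log2 fold change -0.62 ± 0.13, adjusted p = 0.0982). nr1d4a, a fish member of the same family, had 11.5, 8.97, 13.2, 12.5 and 13.0 CPM in exercised and 5.04, 6.05, 6.99, 6.92 and 8.46 CPM in unexercised libraries. No exercised library overlapped the unexercised group, and the log2 fold change was 0.82 ± 0.16 (adjusted p = 0.077). rorcb, a receptor of the ROR family, had 26.2, 24.6, 27.7, 25.0 and 27.7 CPM in exercised libraries, against 16.3, 15.9, 17.9, 15.02 and 16.4 CPM in unexercised ones. All exercised values were above all unexercised ones, with little spread in either group, and the log2 fold change was 0.69 ± 0.15 (adjusted p = 0.0982). With only the 1-year libraries in the fit, rorcb was called.

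Among the clock output factors, tefa, an activator of the PAR bZIP family, had 233, 225, 192, 218 and 188 CPM in exercised libraries, against 265, 273, 327, 294 and 314 CPM in unexercised ones. The groups did not overlap, and the log2 fold change was -0.48 ± 0.09 (adjusted p = 0.077). HLF, of the same family, had a log2 fold change of 0.43 ± 0.22 with overlapping groups. The bZIP repressors that compete for their sites had positive values: NFIL3 had a log2 fold change of 0.51 ± 0.16 and nfil3-5 of 0.68 ± 0.27, with adjusted p of 0.248 and 0.365. The E-box repressor BHLHE41 had 131 to 165 CPM after exercise and 130.2 to 204 CPM without it (log2 fold change -0.29 ± 0.11). Levels of clock genes follow the hour of the day, and the hour of sampling is stated in no source used here.

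**Figure D3:**
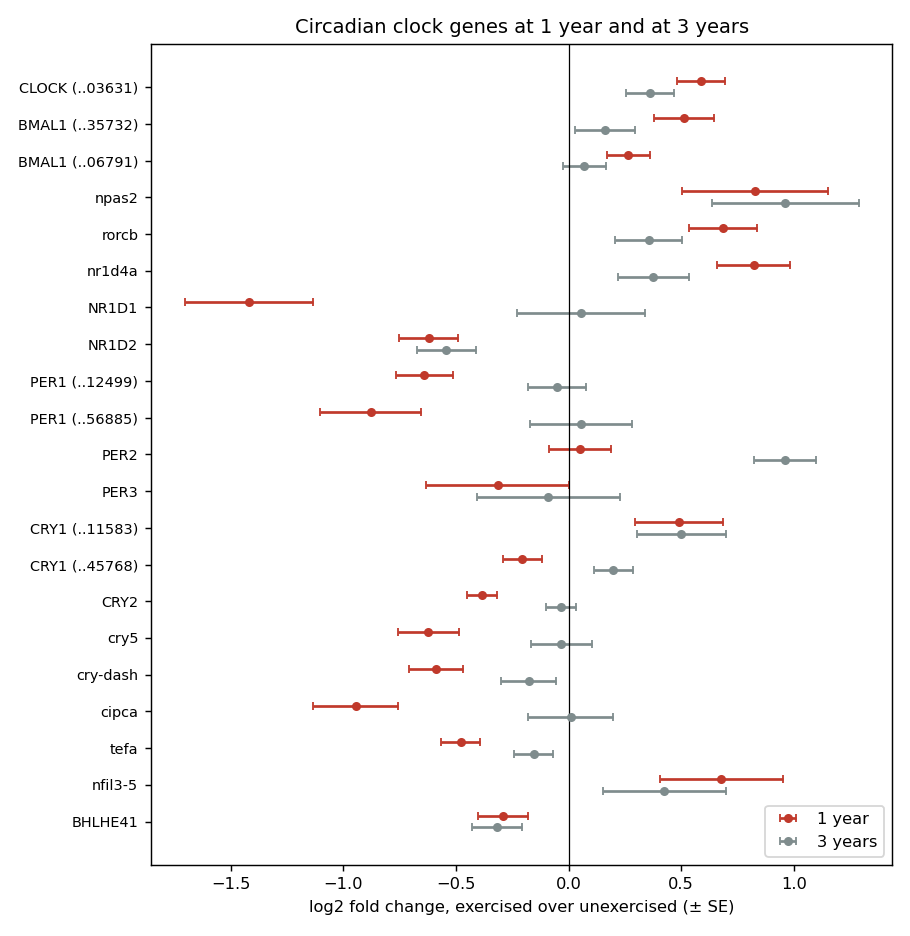
Log2 fold change of exercised over unexercised fish ± SE for 21 clock genes, at 1 year (red) and at 3 years (grey), with the last digits of the identifier where a symbol is shared. NR1D1 lies at -1.42 at 1 year and 0.05 at 3 years, and PER2 at 0.05 and 0.96. Without unexercised replicate 5, the value of PER2 at 1 year was 0.26. CLOCK, npas2 and nr1d4a lie to the right of 0 at both ages.

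Genes of the glucocorticoid response mostly had positive values. Of 32 tested, 1 was called (FOXO1), 9 had an unadjusted p below 0.05 with a positive and 3 with a negative fold change, against 5.01% and 6.44% of all genes, and 22 were positive, against 45.2% of all genes. The negative members with such a p included both PER1 genes, which are described with the clock (-0.64 ± 0.13 and -0.88 ± 0.23). The median log2 fold change of the list was 0.24 (0.08 without exercised replicate 3 to 0.31 without unexercised replicate 5). hsd20b2, an enzyme that in zebrafish clears cortisol, had 21.2, 25.1, 42.4, 26.3 and 40.0 CPM in exercised libraries, against 6.47, 8.29, 4.24, 5.35 and 20.1 CPM in unexercised ones. All exercised libraries were higher, with unexercised replicate 5 the closest to them, and the log2 fold change was 1.802 ± 0.40 (adjusted p = 0.0982). PDK4, a kinase that shuts off pyruvate dehydrogenase in fasting, had 17.9, 20.5, 28.0, 20.4 and 33.3 CPM after exercise and 11.8, 6.45, 8.74, 7.77 and 16.6 CPM without it. Exercised and unexercised libraries did not overlap, and the log2 fold change was 1.23 ± 0.27 (adjusted p = 0.0998). zbtb16b, a zinc finger repressor, had 46.1, 73.0, 86.8, 78.4 and 87.4 CPM in exercised libraries and 46.3, 39.9, 39.8, 35.8 and 42.9 CPM in unexercised ones. Exercised replicate 1 lay among the unexercised libraries, which were closely grouped, and the log2 fold change was 0.86 ± 0.16 (adjusted p = 0.077).

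Classical targets of the receptor had a wide spread among unexercised libraries. FKBP5, a co-chaperone that lowers the receptor's affinity for cortisol, had 689, 700.5, 989, 597 and 678 CPM in exercised libraries, against 54.0, 72.2, 285, 229 and 1365 CPM in unexercised ones. KLF9, a transcription factor and early target of the hormone, had 82.0, 74.2, 132, 61.8 and 84.0 CPM in exercised libraries and 5.62, 6.02, 22.5, 21.8 and 134 CPM in unexercised ones. For both genes, unexercised replicates 1 to 4 were below all exercised libraries and unexercised replicate 5 was above them all. Their log2 fold changes were 0.87 ± 0.74 (adjusted p = 0.688) and 1.19 ± 0.73 (adjusted p = 0.549). Without unexercised replicate 5 they were 2.21 (adjusted p = 0.137) and 2.65 (adjusted p = 0.0491). Without unexercised replicate 1 they were 0.60 (adjusted p = 0.827) and 0.93 (adjusted p = 0.709). Leaving out a library that lies on the other group's side enlarges a gene's difference by itself. This also applies to the other genes whose values are given without unexercised replicate 5. GLUL (ENSDARG00000100003), glutamine synthetase, had 505 to 614 CPM after exercise and 257 to 512 CPM without it (log2 fold change 0.63 ± 0.17, adjusted p = 0.168). The other gene with this symbol, GLUL (ENSDARG00000099776), was more abundant, with 1406 to 1992 and 1285 to 2067 CPM (0.06 ± 0.12, adjusted p = 0.881). The receptor NR3C1 itself had 95.9 to 103 CPM in exercised and 99.5 to 117 CPM in unexercised libraries (log2 fold change -0.13 ± 0.05), and HSD11B2, which inactivates cortisol, gave 0.31 ± 0.38. DDIT4 (0.57 ± 0.32), sgk1 (0.17 ± 0.15) and tsc22d3 (0.02 ± 0.22), all further targets, had overlapping groups.

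The FoxO and insulin list, which includes the called FOXO1, held 33 positive members of 40 tested, against 45.2% of all genes. Of these 40, 8 were positive and 2 negative at an unadjusted p below 0.05, against 5.01% and 6.44% of all genes. The median was 0.18 (0.11 without exercised replicate 2 to 0.20 without exercised replicate 1). Without unexercised replicate 1 and exercised replicate 3 together, 3 positive and 0 negative members had such a p. foxo3b, a further FoxO factor, had 162, 185, 207, 133 and 169 CPM in exercised libraries, against 69.1, 107, 98.3, 96.9 and 196 CPM in unexercised ones. Unexercised replicates 1 to 4 were below every exercised library and unexercised replicate 5 was within the exercised range; the log2 fold change was 0.59 ± 0.19 (adjusted p = 0.267), or 0.88 (adjusted p = 0.00205) without that library. pik3r3a, a regulatory subunit of PI3 kinase, had the same layout, with 51.0 to 67.7 CPM in exercised libraries, 16.5 to 27.5 CPM in unexercised replicates 1 to 4 and 63.1 CPM in unexercised replicate 5 (log2 fold change 0.95 ± 0.35). PIK3R1, another such subunit, had 298 to 400.4 CPM after exercise and 229 to 329 CPM without it (0.35 ± 0.13). IGFBP1, a binding protein that holds back insulin-like growth factors, had 15.9, 18.8, 31.6, 18.6 and 13.0 CPM in exercised and 6.88, 5.80, 13.4, 8.17 and 16.8 CPM in unexercised libraries. The groups overlapped, and the log2 fold change was 0.94 ± 0.35 (adjusted p = 0.327). IGF1 gave 0.09 ± 0.13.

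Immediate early genes lay mostly on the negative side. Of 33 tested, 0 were called, 17 had an unadjusted p below 0.05 with a negative and 0 with a positive fold change, against 6.44% and 5.01% of all genes. All exercised libraries were lower than all unexercised ones for 6 members, against 0.979% of all genes, and the median log2 fold change was -0.59 (-0.69 without exercised replicate 5 to -0.39 without unexercised replicate 4). NPAS4 (ENSDARG00000055752), a factor that neurons switch on when they fire, had 232, 286, 208, 192 and 304 CPM in exercised libraries, against 585, 669.7, 1195, 1148 and 1065 CPM in unexercised ones. The groups were far apart, and the log2 fold change was -1.93 ± 0.58 (adjusted p = 0.226). The fit also took in the 3-year libraries, where unexercised fish had 29.0 to 786 CPM. With only the 1-year libraries in the fit, this gene was called. Another copy, NPAS4 (ENSDARG00000087753), had 24.0 to 37.8 CPM after exercise and 38.4 to 75.1 CPM without it, also without overlap (-0.74 ± 0.27). ier2a had 8.11, 16.4, 7.25, 8.30 and 11.2 CPM in exercised and 25.1, 36.8, 29.4, 26.6 and 20.1 CPM in unexercised libraries, and its paralog ier2b 10.03 to 17.4 and 22.9 to 35.5 CPM. Neither gene's groups overlapped, and the log2 fold changes were -1.43 ± 0.33 (adjusted p = 0.0998) and -1.21 ± 0.30 (adjusted p = 0.133). IER5 gave -0.44 ± 0.13.

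The egr factors, zinc finger proteins of the early response, had an exception in unexercised replicate 5. egr1 had 255, 345, 274, 279.6 and 378 CPM in exercised libraries, against 644, 928, 996, 1011 and 329 CPM in unexercised ones. egr4 had 39.2, 86.7, 37.7, 41.7 and 69.2 CPM after exercise and 200.1, 380.5, 283, 272 and 85.9 CPM without it. For both, unexercised replicates 1 to 4 were above every exercised library, and unexercised replicate 5 lay within the exercised range. The log2 fold changes were -1.35 ± 0.36 (adjusted p = 0.161) and -2.15 ± 0.53 (adjusted p = 0.133), and without that library -1.54 (adjusted p = 0.034) and -2.37 (adjusted p = 0.0393). NR4A1, an orphan nuclear receptor of the same class, had 10.1 to 21.3 CPM in exercised libraries, 38.1 to 83.9 CPM in unexercised replicates 1 to 4 and 13.6 CPM in unexercised replicate 5 (-1.65 ± 0.63). BTG2, an antiproliferative gene, had 22.6 to 61.5 CPM in exercised libraries, against 77.0 to 89.8 CPM in those 4 libraries and 30.9 CPM in unexercised replicate 5 (-1.19 ± 0.39). FOSB and the phosphatase DUSP1 gave -0.30 ± 0.51 and -0.22 ± 0.30, with overlapping groups.

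**Figure D4:**
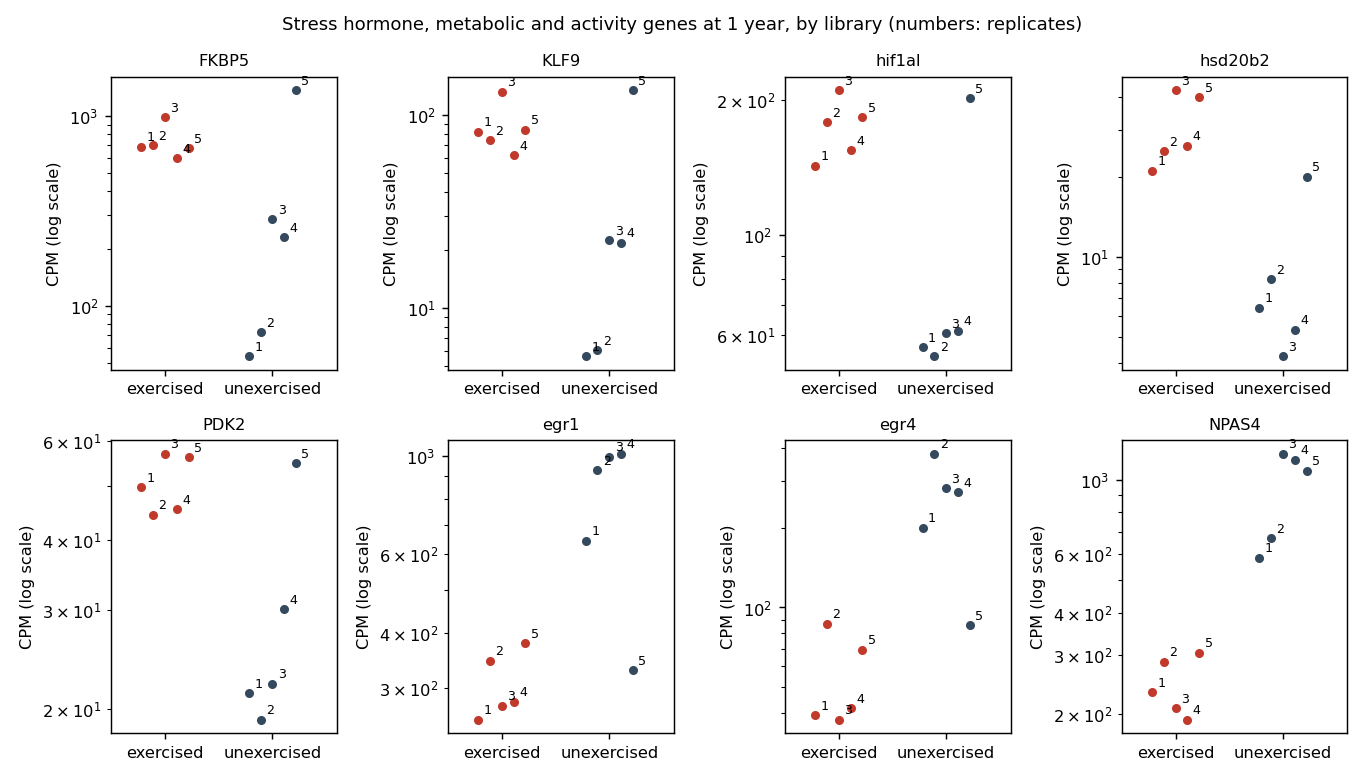
Level in CPM (log scale) of 8 genes in each 1-year library, exercised (red) left of unexercised (blue), with replicate numbers. Unexercised replicate 5 lies with or above the exercised libraries for FKBP5, KLF9, hif1al and PDK2, below them for hsd20b2 and within them for egr1 and egr4, but with the unexercised libraries for NPAS4 (ENSDARG00000055752), at 1065 CPM.

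Activin signalling, which in the brain bears on neuronal survival and synaptic function, held several of the genes with a small p. INHBA (ENSDARG00000024759), the subunit of activin A, had 14.6, 7.85, 15.9, 10.19 and 15.8 CPM in exercised libraries, against 3.51, 4.04, 5.46, 7.99 and 5.09 CPM in unexercised ones. Only exercised replicate 2 and unexercised replicate 4 crossed, and the log2 fold change was 1.304 ± 0.23 (adjusted p = 0.0721). ACVR2A, a type II receptor for activins, had 144, 149.5, 209, 142 and 179.9 CPM after exercise and 109, 113, 101, 99.1 and 126 CPM without it. Exercised and unexercised libraries did not overlap, and the log2 fold change was 0.59 ± 0.11 (adjusted p = 0.077). ACVR1B (ENSDARG00000052142), a type I receptor, gave 0.40 ± 0.18 with overlapping groups. Of the inhibitors, FST (ENSDARG00000052846), follistatin, had 20.6, 21.1, 21.4, 19.7 and 23.0 CPM in exercised and 17.3, 16.4, 15.4, 17.1 and 15.98 CPM in unexercised libraries. All exercised values were higher (0.37 ± 0.11, adjusted p = 0.217). SMAD7, which blocks the receptors from within, gave 0.30 ± 0.10. Of 30 genes of the wider list tested, 6 had an unadjusted p below 0.05 with a positive and 1 with a negative fold change, against 5.01% and 6.44% of all genes, and the median was 0.09 (0.05 without exercised replicate 2 to 0.21 without unexercised replicate 1); the negative one was TGFBR2 (ENSDARG00000034541), a receptor for TGF-beta, with 6.42 to 11.5 CPM in exercised libraries, 9.54 to 16.5 CPM in unexercised replicates 2 to 5 and 31.4 CPM in unexercised replicate 1 (-0.90 ± 0.27).

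Genes that steer fuel use and the response to low oxygen had values of both signs. Of 50 hypoxia and glycolysis genes, 9 had an unadjusted p below 0.05 with a positive and 5 with a negative fold change, against 5.01% and 6.44% of all genes, and the median was 0.07 (0.05 without exercised replicate 5 to 0.09 without unexercised replicate 1). Without unexercised replicate 1 the negative members with such a p numbered 0. hif1al, a relative of the hypoxia-inducible factors, had 143, 179, 210.5, 155 and 183 CPM in exercised libraries, against 56.2, 53.7, 60.3, 61.2 and 202 CPM in unexercised ones. Unexercised replicates 1 to 4 were closely grouped below all exercised libraries, and replicate 5 was inside the exercised range. The log2 fold change was 1.00 ± 0.32 (adjusted p = 0.248), and without that library 1.59 (adjusted p = 0.00082). EGLN3, a prolyl hydroxylase that marks these factors for breakdown and is itself their target, had 2.76, 5.13, 10.03, 5.13 and 6.91 CPM after exercise and 2.55, 1.62, 3.22, 3.19 and 3.41 CPM without it. The groups overlapped through exercised replicate 1, and the log2 fold change was 1.097 ± 0.28 (adjusted p = 0.141). ANKRD37, a hypoxia target in human cells, gave 0.87 ± 0.23. PDK2 (ENSDARG00000020876), a pyruvate dehydrogenase kinase like PDK4, had 44.4 to 57.0 CPM in exercised libraries, 19.2 to 30.1 CPM in unexercised replicates 1 to 4 and 54.9 CPM in unexercised replicate 5 (0.78 ± 0.25). VEGFA (ENSDARG00000034700) and VEGFA (ENSDARG00000103542), vascular growth factors, gave -0.01 ± 0.10 and -0.07 ± 0.12. The negative values included ALDOA (ENSDARG00000034470), an aldolase with 4.26 to 4.56 CPM in exercised libraries and 174 CPM in unexercised replicate 1, and PKM (ENSDARG00000099860), a pyruvate kinase with 0.565 to 2.99 and 119 CPM, whose values in unexercised replicates 2 to 5 were 3.50 to 8.84 and 0.843 to 4.31 CPM; that library also had the muscle transcripts described above, whose part in these values was not tested.

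Of 37 genes of mitochondrial biogenesis and respiration, 3 had an unadjusted p below 0.05 with a positive and 2 with a negative fold change, against 5.01% and 6.44% of all genes, with a median of 0.04 (-0.01 without exercised replicate 4 to 0.06 without exercised replicate 2). PPARGC1A, the coactivator that drives mitochondrial biogenesis, had 16.2, 20.9, 20.5, 17.9 and 16.3 CPM in exercised libraries, against 13.3, 12.6, 8.90, 8.61 and 11.1 CPM in unexercised ones. The groups did not overlap, and the log2 fold change was 0.75 ± 0.20 (adjusted p = 0.153). Its relative ppargc1b had 164 to 216 CPM after exercise, against 99.1 to 129 CPM in unexercised replicates 1 to 4 and 227 CPM in unexercised replicate 5 (0.54 ± 0.18). YME1L1 (ENSDARG00000075192), a protease of the inner mitochondrial membrane, had 50.1, 52.8, 63.9, 53.7 and 61.8 CPM in exercised libraries and 32.0, 42.2, 26.97, 37.7 and 39.0 CPM in unexercised ones. All exercised values were higher, and the log2 fold change was 0.67 ± 0.13 (adjusted p = 0.077). The members with such a p and a negative value, ucp3 and COX6A1, were highest in unexercised replicate 1, at 13.7 and 31.0 CPM, against 0.133 to 0.870 and 1.25 to 2.32 CPM in exercised libraries.

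HSF2 stood among heat shock genes of mixed direction. Of 36 tested, 3 had an unadjusted p below 0.05 with a positive and 2 with a negative fold change, against 5.01% and 6.44% of all genes, and the median was 0.01 (-0.03 without unexercised replicate 2 to 0.06 without unexercised replicate 1); without unexercised replicate 5, 2 positive and 5 negative members had such a p. HSP90AA1, the inducible HSP90 chaperone, had 488, 512, 511, 574 and 554 CPM in exercised libraries, against 314, 319, 411, 382 and 413 CPM in unexercised ones. All exercised libraries were higher, and the log2 fold change was 0.52 ± 0.11 (adjusted p = 0.0971). HSPA8 (ENSDARG00000068992), a constitutive HSP70 protein, had 1673 to 2072 CPM after exercise and 1488 to 1803 CPM without it (0.23 ± 0.10). The inducible hsp70l had 1.58 to 2.68 CPM in exercised and 2.36 to 4.40 CPM in unexercised libraries (-0.72 ± 0.27), and CRYAB (ENSDARG00000101380), a small heat shock protein, gave 0.62 ± 0.27.

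DDB2 was accompanied by negative values in most of its list. Of 36 genes of the DNA damage response, 29 had a negative fold change, 7 of them with an unadjusted p below 0.05 against 1 with a positive one, and the median was -0.13 (-0.17 without unexercised replicate 2 to -0.08 without unexercised replicate 5); of all genes, 45.2% were positive, and 6.44% had such a p with a negative and 5.01% with a positive value. Without unexercised replicate 1 and exercised replicate 3 together, 4 negative and 0 positive members had one. With every library, the positive member was CRY1 (ENSDARG00000011583), described with the clock. BTG2, described with the egr factors, was among the 7 negative ones. ERCC2, a helicase of nucleotide excision repair, had 15.8, 16.5, 15.02, 17.0 and 16.2 CPM in exercised libraries, against 17.6, 17.3, 21.5, 21.0 and 18.7 CPM in unexercised ones. Exercised and unexercised libraries did not overlap, and the log2 fold change was -0.26 ± 0.07 (adjusted p = 0.189). GADD45A (ENSDARG00000043581), a growth arrest gene, had 2.35 to 3.27 CPM after exercise and 2.39 to 5.36 CPM without it (-0.55 ± 0.19). PCNA, of DNA replication, gave -0.13 ± 0.07.

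Synaptic genes had small positive values. Of 33 genes of vesicles and release, 29 were positive, 3 with an unadjusted p below 0.05 and 0 in the other direction, against 45.2%, 5.01% and 6.44% of all genes, and the median was 0.13 (0.07 without unexercised replicate 1 to 0.17 without unexercised replicate 5). Members with such a p numbered 1 without unexercised replicate 1, whose neuronal score was the lowest, and 0 without that library and exercised replicate 3. RAB3A (ENSDARG00000043835), a vesicle GTPase, gave 0.42 ± 0.17, SV2A, a vesicle membrane protein, 0.20 ± 0.09, and SYT11 (ENSDARG00000056105), a synaptotagmin, 0.31 ± 0.12. Of 53 transmitter receptors and transporters, 40 were positive and 3 of these had an unadjusted p below 0.05, against 45.2% and 5.01% of all genes, with a median of 0.13 (0.12 without unexercised replicate 5 to 0.17 without unexercised replicate 2). GRIN2B (ENSDARG00000079348), a subunit of the NMDA glutamate receptor, had 94.7, 95.9, 140.4, 81.7 and 74.1 CPM in exercised libraries, against 47.3, 87.0, 39.3, 43.5 and 27.1 CPM in unexercised ones. Only unexercised replicate 2 overlapped the exercised range, and the log2 fold change was 1.00 ± 0.31 (adjusted p = 0.242). GRM5 (ENSDARG00000004445), a metabotropic glutamate receptor, gave 0.57 ± 0.27. The 38 neuropeptide genes had a median of -0.10 (-0.16 without unexercised replicate 2 to 0.04 without exercised replicate 2). Of these, gnrh3, a gonadotropin-releasing hormone, was the only one with an unadjusted p below 0.05, against 11.5% of all genes. It had 1.94, 2.45, 5.19, 3.62 and 6.84 CPM after exercise and 1.67, 1.802, 0.734, 1.58 and 1.08 CPM without it; the groups did not overlap, though exercised replicates 1 and 2 were near the unexercised values (1.55 ± 0.57, adjusted p = 0.326).

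The growth factors most often linked to exercise in mammals had overlapping groups. BDNF, a neurotrophin, had 78.4, 57.4, 69.4, 85.4 and 85.7 CPM in exercised libraries, against 53.3, 54.0, 68.3, 92.2 and 72.7 CPM in unexercised ones. Its log2 fold change was 0.14 ± 0.19 (adjusted p = 0.808). Of 27 neurotrophic and growth factor genes, 1 had an unadjusted p below 0.05 with a positive and 1 with a negative fold change, against 5.01% and 6.44% of all genes, and the median was 0.11 (0.08 without exercised replicate 1 to 0.11 without exercised replicate 2). The positive one was FNDC5 (ENSDARG00000035895), the precursor of irisin, with 33.3 to 52.3 CPM after exercise and 14.9 to 45.0 CPM without it (0.63 ± 0.26). The proliferation marker mki67 gave -0.04 ± 0.30, and of 36 cell cycle and neurogenesis genes 3 had an unadjusted p below 0.05 with a negative fold change (6.44% of all genes did), MCM3 of the replication helicase (-0.43 ± 0.13), SOX11 (ENSDARG00000077811), a factor of young neurons (-0.21 ± 0.09), and STMN1 (ENSDARG00000033655), a microtubule regulator (-0.13 ± 0.06), and 0 with a positive one.

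Endothelial genes had values of both signs. Of 27 tested, 4 had an unadjusted p below 0.05 with a positive and 0 with a negative fold change, against 5.01% and 6.44% of all genes, and the median was 0.09 (0.05 without unexercised replicate 3 to 0.12 without unexercised replicate 1). KDR, a receptor for vascular endothelial growth factor, had 22.6, 38.6, 40.2, 27.4 and 27.3 CPM in exercised libraries, against 23.1, 18.9, 18.6, 14.2 and 23.6 CPM in unexercised ones. The groups overlapped through exercised replicate 1, and the log2 fold change was 0.67 ± 0.16 (adjusted p = 0.125). kdrl, the paralogous receptor, gave 0.37 ± 0.13, sox18, an endothelial transcription factor, 0.71 ± 0.20, and CLDN5 (ENSDARG00000043716), a tight junction protein of the blood-brain barrier, 0.45 ± 0.18. Among radial glia and astroglial genes, 3 of 23 had an unadjusted p below 0.05 with a positive fold change (5.01% of all genes did): GLUL (ENSDARG00000100003), described above, VIM (ENSDARG00000010008), vimentin (0.46 ± 0.20), and SLC1A3 (ENSDARG00000104431), a glutamate transporter (0.39 ± 0.14). SOX9 (ENSDARG00000043923), a factor of radial glia, gave -0.54 ± 0.22, and OLIG2, of the oligodendrocyte lineage, -0.50 ± 0.19; the 16 oligodendrocyte genes had a median of -0.11 (-0.20 without exercised replicate 2 to -0.04 without unexercised replicate 1), the 23 glial genes of 0.10 (0.02 without exercised replicate 4 to 0.11 without unexercised replicate 5) and the 20 neuronal markers of 0.10 (0.07 without exercised replicate 1 to 0.15 without exercised replicate 2).

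In lipid metabolism, srebf2, the master factor of cholesterol synthesis, had 156, 186, 172, 174 and 139 CPM in exercised libraries, against 108, 127, 127, 133 and 128 CPM in unexercised ones. All exercised libraries were higher (0.41 ± 0.11, adjusted p = 0.176). The 29 genes of the cholesterol list had a median of 0.04 (-0.02 without exercised replicate 4 to 0.07 without unexercised replicate 4). Only srebf2 among them had an unadjusted p below 0.05, against 11.5% of all genes. In the autophagy list, ULK1 and ULK2, kinases that start autophagy, gave 0.35 ± 0.17 and 0.33 ± 0.14, ctsla, a cathepsin, had 173 to 231 CPM after exercise and 130.4 to 196 CPM without it (0.42 ± 0.11), and SQSTM1, a cargo receptor, gave -0.24 ± 0.11; 4 of 34 had an unadjusted p below 0.05 with a positive and 1 with a negative fold change, against 5.01% and 6.44% of all genes, and without unexercised replicate 1 there were 1 and 1. Of 35 glutathione and antioxidant genes, 1 was positive and 2 were negative at that p, against 5.01% and 6.44% of all genes. The positive one was gstt2, and the negative ones were GCLC, which starts glutathione synthesis (-0.16 ± 0.06), and mgst3b (-0.22 ± 0.10). Their list had a median of -0.04 (-0.06 without exercised replicate 4 to 0.01 without exercised replicate 1). SLC13A4, a sulfate transporter of the meninges list, had 42.5, 39.0, 47.8, 40.1 and 48.8 CPM in exercised libraries, against 14.8, 14.4, 21.96, 22.7 and 29.0 CPM in unexercised ones. No exercised library overlapped the unexercised group, and the log2 fold change was 1.08 ± 0.25 (adjusted p = 0.103). The median of that list was -0.21 (-0.36 without exercised replicate 2 to 0.24 without unexercised replicate 1), and the list score was 5.50 in unexercised replicate 1, against 3.78 to 4.25 in the other unexercised libraries.

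**Figure D5:**
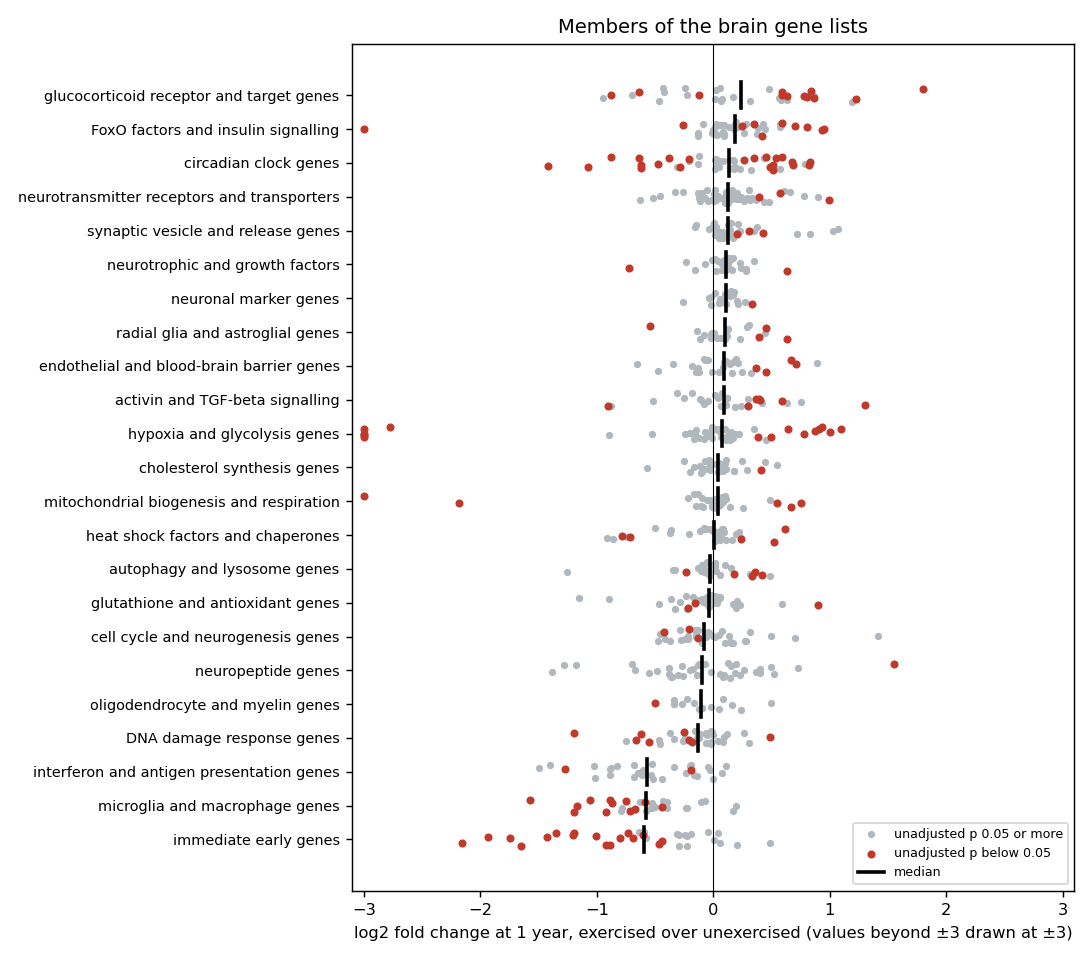
Log2 fold change at 1 year, exercised over unexercised, of every tested member of the 23 brain gene lists (values beyond ±3 are drawn at ±3), red where the unadjusted p was below 0.05, with the median of each list as a bar. Medians run from -0.59 for immediate early genes to 0.24 for glucocorticoid genes, and the clock list has red points on both sides of 0.

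Immune genes had negative values that moved with unexercised replicate 1. Of 31 microglia and macrophage genes, 29 had a negative fold change and 12 of these an unadjusted p below 0.05, against 6.44% of all genes, and the median was -0.58 (-0.67 without unexercised replicate 2 to -0.36 without unexercised replicate 1). Without unexercised replicate 1, 2 had such a p. The list score was 2.84 to 3.06 in exercised libraries, 2.95 to 3.42 in unexercised replicates 2 to 5 and 4.05 in unexercised replicate 1. c1qc, a complement subunit made by microglia, had 1.94, 1.52, 1.35, 1.48 and 2.46 CPM in exercised libraries, against 12.2, 2.41, 4.21, 2.71 and 4.62 CPM in unexercised ones. Unexercised replicate 1 was the highest by far and replicate 2 overlapped the exercised range (-1.58 ± 0.50, adjusted p = 0.25). csf1rb, a receptor that microglia need to survive, had 11.3 to 16.4 CPM after exercise and 14.0 to 26.8 CPM without it (-0.59 ± 0.20), and SLC7A7, an amino acid transporter, gave -0.67 ± 0.26. The 32 interferon and antigen presentation genes had a median of -0.57 (-0.70 without unexercised replicate 2 to -0.21 without unexercised replicate 1), with 2 at an unadjusted p below 0.05, against 11.5% of all genes, among them mhc1zaa, an MHC class I gene (-1.28 ± 0.49). Without unexercised replicate 1 and exercised replicate 3 together, the medians were -0.31 for microglia and -0.16 for interferon genes, with 0 and 0 members at such a p. The part of the other-tissue transcripts in these values was not tested.

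Medians of the other-tissue lists had both signs and also moved with single libraries. The muscle list had a median of -3.18 (-3.86 without exercised replicate 2 to 0.26 without unexercised replicate 1) and 18 of 33 members with an unadjusted p below 0.05 and a negative fold change, the epidermis list -1.17 (-1.37 without exercised replicate 3 to 0.11 without unexercised replicate 1) and 7 of 27, and the retina list 1.25 (0.11 without exercised replicate 3 to 1.48 without exercised replicate 4) and 11 of 25 with a positive one. Of all genes, 6.44% had such a p with a negative and 5.01% with a positive fold change. Without unexercised replicate 1 and exercised replicate 3 together, the medians of the 3 lists were 0.34, -0.15 and 0.06. myhb, a fast muscle myosin, had 0.892 to 2.07 CPM in exercised libraries and 4863 CPM in unexercised replicate 1. Of 12 erythrocyte genes, 1 was positive and 2 negative at an unadjusted p below 0.05, against 5.01% and 6.44% of all genes. The factors gata1a and klf1 of that list had 0.548 to 1.58 and 0.491 to 1.61 CPM in exercised libraries. In unexercised ones they had 0.438 to 5.04 and 0.573 to 3.35 CPM, and replicate 5 was the lowest for both. The lymphocyte and neutrophil list had a median of -0.29 (-0.42 without exercised replicate 2 to 0.06 without unexercised replicate 1), the pituitary list of -0.03 (-0.21 without unexercised replicate 5 to 0.02 without exercised replicate 3), the erythrocyte list of -0.11 (-0.20 without unexercised replicate 5 to 0.06 without unexercised replicate 3) and the otolith and inner ear list of 0.19 (-0.07 without exercised replicate 5 to 0.29 without unexercised replicate 3).

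Among the fits that each left out a 1-year library, edgeR called the most genes without unexercised replicate 5. Without it, edgeR called 157 genes higher and 40 lower (0.742% and 0.189%), 197 in all (0.932%), including the 4 called with every library. For 93 of the 197 (47.2%), the level in that library lay within the range of the exercised libraries, against 3 or 4 of the 197 (1.52% to 2.03%) for each of the other unexercised libraries; over all genes the share within that range was 47.5% to 62.9%. The 197 genes were chosen by a fit without that library, which by itself favours such a result. CRY1 (ENSDARG00000011583), tasor2, hif1al, foxo3b, PDK2 and ppargc1b were among them, with adjusted p of 0.00322, 0.000161, 0.00082, 0.00205, 0.00787 and 0.00141. With all libraries kept, DESeq2 called 166 higher and 102 lower (0.793% and 0.487%, or 1.28% in all, of 20932 genes with an adjusted p), and limma voom with quality weights per library 155 and 70 (0.733% and 0.331%, or 1.06% in all). The 3 fits shared 93 genes, 67 higher and 26 lower, which are 34.7% of the DESeq2, 41.3% of the voom and 47.2% of the edgeR calls.

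At 3 years, in other fish, 6 genes were called for exercise (0.0284%), and their values at 1 year differed from gene to gene. PELI3, a ubiquitin ligase of immune signalling, had a log2 fold change of 0.43 ± 0.10 at 1 year (adjusted p = 0.107) and rose by 0.70 ± 0.10 at 3 years (adjusted p = 0.0107). BAIAP2 (ENSDARG00000103333), an adaptor of the postsynaptic actin skeleton, had 149, 142, 129, 128 and 125 CPM in exercised and 67.9, 70.7, 65.9, 59.2 and 130.4 CPM in unexercised libraries at 1 year. Unexercised replicate 5 was again within the exercised range, and the log2 fold changes were 0.77 ± 0.20 at 1 year (adjusted p = 0.153) and 1.21 ± 0.20 at 3 years (adjusted p = 0.0481). The other gene with this symbol, BAIAP2 (ENSDARG00000062799), had 0.27 ± 0.13 at 1 year and 0.15 ± 0.13 at 3 years. PER2 had 0.05 ± 0.14 at 1 year, or 0.26 without unexercised replicate 5, and rose by 0.96 ± 0.14 at 3 years (adjusted p = 0.0107). SUZ12 (ENSDARG00000098924), a Polycomb subunit, had -0.13 ± 0.09 at 1 year (adjusted p = 0.624) and -0.55 ± 0.09 at 3 years (adjusted p = 0.0481). cyp27a1.1, a sterol hydroxylase, had 16.6 to 19.0 CPM in exercised and 17.3 to 21.3 CPM in unexercised fish at 1 year, with a log2 fold change of -0.09 ± 0.08 (adjusted p = 0.699). At 3 years the value was -0.82 ± 0.08 (adjusted p = 5.81e-05), and CYP27A1 (ENSDARG00000069186), a related gene, had -0.42 ± 0.28 at 1 year and -1.67 ± 0.28 at 3 years (adjusted p = 0.0481). With RLE scaling, with voom and with no filter on low counts, 4 genes were called, without BAIAP2 (ENSDARG00000103333) and CYP27A1 (ENSDARG00000069186).

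The exercise difference itself was compared between the ages, as the effect at 3 years minus that at 1 year. Only cyp27a1.1 passed (-0.73 ± 0.11, adjusted p = 0.0485), 0.00473% of genes, and 4.75% had an unadjusted p below 0.05. In the 20 fits that each left out a library, cyp27a1.1 was called in 3, with differences of -0.78 to -0.69 and adjusted p of 0.012 to 0.169. No gene was called in 16 of them, in which 3.41% to 6.64% of genes had an unadjusted p below 0.05. The 12 genes with the smallest p and a positive value at 1 year were all positive at 3 years (51.1% of all genes were), each with an unadjusted p below 0.05 there, where 3.95% of all genes had one in that direction. Of the 12 with a negative value, 9 were negative at 3 years and 2 had an unadjusted p below 0.05, where 4.11% of all genes did. The difference between ages had an unadjusted p below 0.05 for 3 of the first 12 and for all 12 of the second, with adjusted p of 0.982 to 0.998 and 0.696 to 0.982. The choice of the genes by their 1-year values favours a smaller value at 3 years in both sets. Both ages also share the estimate of each gene's spread, which favours a small p at 3 years in genes chosen by their p at 1 year. The shares of all genes at that p are therefore not a like baseline.

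By gene, DDB2 gave 0.08 ± 0.11 at 3 years (difference 0.75 ± 0.15, unadjusted p = 8.86e-05, adjusted p = 0.696), with 9.39 to 13.1 CPM in exercised and 8.39 to 12.6 CPM in unexercised fish of that age. ZNF395 gave -0.33 ± 0.12, HSF2 -0.35 ± 0.13 and FOXO1 0.36 ± 0.13, smaller than at 1 year but of the same sign (adjusted p of the differences 0.982, 0.982 and 0.982). Among clock genes, NR1D1 gave 0.05 ± 0.28 at 3 years, PER1 (ENSDARG00000012499) -0.05 ± 0.13, CRY2 -0.03 ± 0.07 and cipca 0.01 ± 0.19, while NR1D2 gave -0.54 ± 0.13, CLOCK (ENSDARG00000003631) 0.36 ± 0.11 and npas2 0.96 ± 0.33. In unexercised fish, NR1D1 had 6.34 to 19.3 CPM at 3 years against 30.8 to 72.3 CPM at 1 year. PER1 (ENSDARG00000012499) had 37.9 to 60.4 against 124 to 170.0 CPM, and CRY2 31.9 to 38.4 against 47.6 to 62.0 CPM. For cipca the levels were 1.86 to 2.37 and 4.89 to 7.47 CPM. NR1D2 was lower at 3 years too, with 120.4 to 163 against 342 to 442 CPM. Whether these lower levels at 3 years bear on the exercise differences was not tested. Of the 44 clock genes, 12 were positive and 2 negative at an unadjusted p below 0.05 at 3 years, against 3.95% and 4.11% of all genes. INHBA gave 1.19 ± 0.23 and rps6kb1a 0.95 ± 0.19, hsd20b2 1.54 ± 0.40, FKBP5 1.42 ± 0.74, KLF9 1.86 ± 0.75 and hif1al 1.14 ± 0.32, whereas PDK4 gave 0.23 ± 0.27 and IGFBP1 -0.37 ± 0.35. The immediate early list had a median of -0.22. Of its 33 members, 6 were negative at an unadjusted p below 0.05, against 4.11% of all genes. In that list, egr4 gave -1.64 ± 0.53, ier2a -0.96 ± 0.32 and NPAS4 (ENSDARG00000055752) -0.84 ± 0.56. Median values at 3 years were 0.07 for the microglia list and 0.24 for the glucocorticoid list.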

How the data were processed

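Of 20 brain RNA libraries, 10 came from 1-year fish. The kit (TruSeq RNA v2, per the labels' protocols) does not mark strand. Gene counts deposited by the authors, whole numbers for 32105 Ensembl identifiers, were the basis of every test. Tools named in the submitters' processing notes are featureCounts 1.4.6-p4, STAR 2.4.1d and bcl2fastq 1.8.4, with GRCz10 as the build. No source used here states how reads shared by near-identical copies or overlapping genes were counted, so values of paralogs and of overlapping or antisense genes are uncertain. A deposited RPKM table was read only for a check against the counts, since its values imply divisors from other libraries: the median CV of the implied gene length over libraries was 13.8% with each library's own total and 0.00217% with totals recycled down the gene list. Coordinates and sequences are not given, as no genome was used.

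The test was edgeR 4.0.16 under R 4.3.3 (filterByExpr with a minimum count of 10 and total of 15, TMM, quasi-likelihood F-test with robust dispersions, a mean per group over all 20 libraries, Benjamini-Hochberg adjustment over 21148 genes). Standard errors are the size of the fold change over the root of F. Every adjusted p is from this test unless another tool is named. The script was tested on simulated counts with no outlying library and less spread than these data, whose common coefficient of biological variation was 0.338. That was a check of the code and says nothing on the reliability of the calls here. Alternatives were RLE scaling, no filter, DESeq2 1.42.0, voom with quality weights in limma 3.58.1, only the 1-year libraries, and leaving out libraries.

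Symbols matched 26269 identifiers. The 31 gene lists held 937 symbols, of which 886 matched, 245 through a family symbol without its copy letter, which may be another copy. Lists were not tested as sets. The comparison, lists and genes were chosen with earlier results of these data known. Named were all called genes, the 12 with the smallest p in each direction with a symbol and at least 1 CPM, up to 6 members per list with the smallest unadjusted p below 0.05, members needed for a pathway's roles, genes called at 3 years or between ages, and genes called in at least 6 of the 10 fits without a 1-year library. A few genes that this rule names are not reported here.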

Additional observations from a re-analysis of the deposited data

Results flagged for a closer look

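In 46 of 350 groups of 5 values, the highest or lowest library lay further from the others than Dixon's 95% limit allows (gap over range above 0.71), where chance gives about 5.0%. Each value below is followed, in parentheses, by the range of the other 4 libraries of its group.

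Exercised replicate 1 had the lowest level of its group for sox18 14.3 (26.4 to 27.9), in CPM. The highest level came from exercised replicate 2 for BTG2 61.5 (22.6 to 31.1), PKM (ENSDARG00000099860) 2.99 (0.565 to 1.03), HLF 26.6 (17.7 to 20.1), BHLHE41 165 (131 to 139), DUSP1 39.3 (14.5 to 20.8) and THRA (ENSDARG00000000151) 21.4 (12.4 to 13.9), in CPM. For exercised replicate 3, the highest values in its group were those of ucp3 0.870 (0.133 to 0.230), GRM5 (ENSDARG00000004445) 187 (103 to 127) and FKBP5 989 (597 to 700.5), in CPM. Exercised replicate 4 had the highest level of its group for CYP27A1 (ENSDARG00000069186) 2.82 (1.44 to 1.83), in CPM. The highest level came from exercised replicate 5 for SQSTM1 75.0 (64.1 to 66.5), in CPM. For unexercised replicate 1, the highest values in its group were those of PKM (ENSDARG00000099860) 119 (0.843 to 4.31), ALDOA (ENSDARG00000034470) 174 (3.50 to 8.84), COX6A1 31.0 (1.69 to 3.13), ucp3 13.7 (0.147 to 1.18), c1qc 12.2 (2.41 to 4.62) and myhb 4863 (1.01 to 156), in CPM. Unexercised replicate 1 had the lowest level of its group for srebf2 108 (127 to 133), in CPM. The highest level came from unexercised replicate 2 for RAB3A (ENSDARG00000043835) 59.4 (36.5 to 41.1) and ULK1 68.3 (34.0 to 42.8), in CPM. For unexercised replicate 2, the lowest values in its group were those of EEF2K 28.5 (34.0 to 34.8), in CPM. Unexercised replicate 5 had the highest level of its group for tasor2 78.0 (36.7 to 43.0), rps6kb1a 17.4 (9.05 to 10.3), hsd20b2 20.1 (4.24 to 8.29), pik3r3a 63.1 (16.5 to 27.5), CRY1 (ENSDARG00000011583) 66.0 (27.8 to 33.8), hif1al 202 (53.7 to 61.2), ppargc1b 227 (99.1 to 129), ULK2 192 (101 to 108), PER2 269.7 (141 to 165), BAIAP2 (ENSDARG00000103333) 130.4 (59.2 to 70.7), FKBP5 1365 (54.0 to 285), KLF9 134 (5.62 to 22.5) and THRA (ENSDARG00000000151) 13.6 (7.52 to 8.30), in CPM. The lowest level came from unexercised replicate 5 for BTG2 30.9 (77.0 to 89.8) and SOX11 (ENSDARG00000077811) 18.6 (23.9 to 25.8), in CPM.

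Among list scores, the values far from their group were those of DNA damage response genes in exercised replicate 1 4.19 (4.25 to 4.27), neuronal marker genes in unexercised replicate 1 7.86 (8.04 to 8.11), retina and pineal photoreceptor genes in exercised replicate 3 2.75 (0.78 to 0.94), epidermis genes in exercised replicate 3 3.44 (2.70 to 2.90), epidermis genes in unexercised replicate 1 5.04 (2.70 to 3.07), meninges and fibroblast genes in unexercised replicate 1 5.495 (3.78 to 4.25) and otolith and inner ear genes in exercised replicate 5 2.95 (2.00 to 2.21). Exercised replicate 2 was the shallowest exercised library, with 23.4 M counts (30.4 to 31.9 M), and its 10 most abundant genes held 14.6% of its counts (11.0 to 12.01%). The exercise effect of cyp27a1.1 differed between the ages, by -0.73 on the log2 scale (3 years minus 1 year, adjusted p = 0.0485 in edgeR's interaction test). No explanation of these values was tested.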

How the results depend on the processing

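At 1 year, 4 genes were called with RLE scaling and with no filter on low counts as well, but 268 by DESeq2, 225 by limma voom with quality weights, 8 with only the 1-year libraries in the fit and 119 with only those and without unexercised replicate 5. The 8 shared 3 with the test on all 20 libraries and lacked FOXO1. NPAS4 (ENSDARG00000055752) and rorcb were among those called only there. Leaving out 1 library at a time gave 0 to 197 calls, and leaving out unexercised replicate 1 with exercised replicate 3 gave 0, with 6.09% of genes at an unadjusted p below 0.05. For exercise at 3 years, DESeq2 called 118 genes, and leaving out single libraries of either age, which share the estimate of the spread, gave 3 to 26. The highest numbers were 26 without 1-year unexercised replicate 5 and 9 without 1-year unexercised replicate 1, and 3 were called when any one of 10 other libraries was left out. For the difference between ages, DESeq2 called 12; 0 were called with no filter (4.83% at an unadjusted p below 0.05) and 0 without that pair of libraries, and leaving out single libraries gave 0 to 2. The cause of these shifts was not tested. Of 2395 log2 fold changes of the 141 named genes under the alternatives, 20 changed sign, in genes that were not called: FOSB (-0.45 to 0.012 without single libraries), HSD11B2 (-0.019 without that pair), PER2 (-0.0063 to 0.26 without single libraries), VEGFA (ENSDARG00000034700) (-0.093 to 0.042 without single libraries, 0.016 with only the 1-year libraries and without unexercised replicate 5, 0.042 without that pair), mki67 (-0.15 to 0.030 without single libraries, 0.0098 with only the 1-year libraries and without unexercised replicate 5) and tsc22d3 (-0.13 to 0.24 without single libraries, -0.016 with voom, -0.095 without that pair). Another 188 passed the threshold only under the alternative and 34 of called genes no longer did. Of 372 list medians, 17 moved by more than the spread between libraries, such as muscle (0.34 without that pair). No paired analysis was possible because the labels give no replicate numbers. The smallest library held 23.4 M counts, so that 1 CPM is about 23.4 reads there.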

Other observations

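A set of 93 genes was called by each of 3 other fits, DESeq2, limma voom with quality weights, and edgeR without unexercised replicate 5. The 3 fits use the same libraries and so are not independent. At 3 years, in other fish, 90 of the 93 had the same sign and 72 of these also an unadjusted p below 0.05. Of all genes, 3.95% had such a p in the positive and 4.11% in the negative direction. All 3 fits estimated each gene's spread from both ages, which favours a small p at 3 years in genes so chosen. These shares are therefore not a like baseline. The following members were chosen after their values were seen, for their known roles, and none was called by the edgeR test with all libraries.

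Genes of glycogen breakdown and of growth signalling were among them. PHKA2, a regulatory subunit of phosphorylase kinase, which switches on glycogen breakdown, had 74.1, 97.4, 107, 79.5 and 89.9 CPM in exercised libraries, against 55.1, 64.9, 48.4, 48.9 and 60.2 CPM in unexercised ones. The groups did not overlap, and the log2 fold change was 0.69 ± 0.15 at 1 year (edgeR adjusted p = 0.0977) and 0.46 ± 0.15 at 3 years. PHKG1 (ENSDARG00000030604), a catalytic subunit of that kinase, had 48.3, 56.7, 59.8, 58.3 and 69.6 CPM after exercise and 26.96, 20.5, 28.4, 17.7 and 44.5 CPM without it. Again every exercised library was higher, with values of 1.08 ± 0.29 at 1 year (adjusted p = 0.161) and 0.89 ± 0.29 at 3 years, while its paralog PHKG1 (ENSDARG00000069498) had -0.17 ± 0.18 at 1 year. EEF2K, a kinase that slows protein synthesis, had 41.5 to 56.6 CPM in exercised and 28.5 to 34.8 CPM in unexercised libraries (0.54 ± 0.11, adjusted p = 0.0971). PRR5, of the mTORC2 kinase complex, had 21.8 to 34.4 and 7.51 to 20.4 CPM (1.07 ± 0.27), and SGK3, a kinase downstream of PI3 kinase, 56.1 to 75.8 and 36.1 to 53.9 CPM (0.59 ± 0.15). The groups did not overlap at 1 year for EEF2K, PRR5 or SGK3 either. THRA (ENSDARG00000000151), a thyroid hormone receptor, had 12.4 to 21.4 CPM in exercised libraries, 7.52 to 8.30 CPM in unexercised replicates 1 to 4 and 13.6 CPM in unexercised replicate 5 (0.72 ± 0.18), so that replicate 5 alone lay within the exercised range.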
